A study of Mus musculus with 30 samples.

Results

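Wild type olfactory epithelium labelled 48 h (48 hpO in the sample titles) was set against wild type olfactory epithelium labelled 0 h, in a study of bilateral bulbectomy, in which both olfactory bulbs are removed by surgery. The members of this comparison are 6 of the series' 30 arrays, 3 at 48 h and 3 at 0 h, chosen by their titles, and they are described across all genes on the array. The other arrays hold wild type tissue at 2, 8 and 16 h and tissue labelled SR-A mutant at 0, 2, 8, 16 and 48 h, with 3 arrays in each group. Each array measured total RNA from microdissected olfactory epithelium on an Affymetrix mouse array. The design text gives 6 week old mice, 3 wild type and 3 SR-A mutant. Strain, sex, the mutant allele and whether the 0 h animals had any surgery are not given in the sources used here, and nothing says that the arrays of 1 group came from separate mice, so the p-values measure the spread between arrays.

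Olfactory sensory neurons of the nose send their axons into the olfactory bulb. Removal of the bulb cuts these axons, and the neurons then die and are cleared and replaced from basal cells of the epithelium. SR-A is the class A scavenger receptor, a macrophage surface receptor encoded by Msr1 that binds modified lipoproteins and bacterial products.

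Msr1 was measured first, as a check of the genotype labels. Its brighter probe set had 169.1, 295.1 and 230.6 at 48 h and 161.0, 83.1 and 173.8 at 0 h on arrays labelled wild type. On arrays labelled SR-A mutant it had 469.7, 440.9 and 297.5 at 48 h and 543.9, 548.5 and 451.2 at 0 h. Over all times it was 32.6 to 295.1 on 15 arrays labelled wild type and 297.5 to 587.4 on 15 labelled SR-A mutant, without overlap, and the other probe set was 45.7 to 184.1 and 103.8 to 347.5. The gene that names the mutant was thus higher, not lower, on the arrays labelled mutant, so that every direction between genotypes given here rests on the labels alone. The position of these probe sets against the mutation is unknown here, and the reason for the higher signal was not tested.

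Values are signals on a linear scale, as the authors deposited them. For the tests, signals under a floor of 113.7 were set to that floor and put on a log2 scale, and each difference is the 48 h mean minus the 0 h mean in log2 units, with its standard error (SE) and a limma p-value adjusted over 6783 probe sets. A gene was called at an adjusted p under 0.05. A fold change is the ratio of the groups' geometric means, after the floor. Where some array of the dimmer group was at the floor, it is given as a lower bound. The 6 arrays were alike in technical measures, with rank correlations within groups of 0.983 to 0.985 at 48 h and 0.982 to 0.986 at 0 h, and with a Gapdh signal at the 3′ end minus the 5′ end of -0.26 to -0.21 log2 units at 48 h and -0.26 to -0.18 at 0 h.

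At 48 h the wild type epithelium had much more RNA for neutrophil and monocyte chemokines, interleukin 1 family members, acute phase proteins and keratins of injured epithelium, and less for type I collagen, bone matrix proteins, chaperones and the odorant transduction machinery. Of 5266 genes tested, 1045 were called, which is 19.8% of them. Of these, 527 rose (10% of genes tested) and 518 fell (9.84%), and the median difference over all genes was -0.02 log2 units. Counted over probe sets, 1334 of 6783 were called (19.7%), 673 of them higher (9.92%) and 661 lower (9.74%). Most changes were small: 881 of the called genes, or 84.3%, changed by less than 2-fold. Differences of at least 4-fold were measured for 22 rises and 12 falls, and of at least 8-fold for 7 rises and 1 fall. The signals of the 48 h arrays and the 0 h arrays did not overlap for 1021 of the called genes, and for 38% of all genes tested. Of the genes tested, 32 entered the test through high signals on the 48 h arrays alone, which had to differ to be tested, and 25 of them were called. They include Cxcl2, Saa3, Orm1, Mmp3, Ccl2, Il1b, Il1rn, Icam1, Bid, Birc3 and Sprr2f. The call of Birc3 was lost without the 48 h replicate 1 or 3 or 0 h replicate 2 array (adjusted p up to 0.0962).

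**Figure D1:**
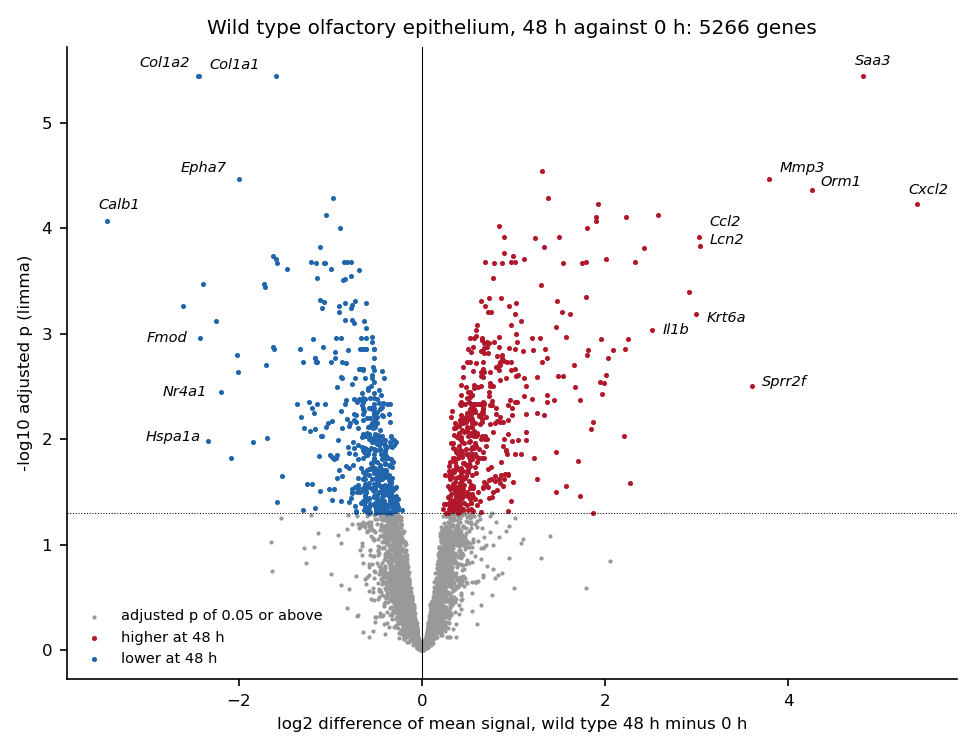
Each point is a gene, with the log2 difference of the 48 h and 0 h means of 3 wild type arrays each on the x axis and -log10 of the limma adjusted p on the y axis. Red points are the 527 genes higher at 48 h and blue points the 518 lower, and Cxcl2 at 5.40 and Calb1 at -3.44 lie at the ends of the x axis.

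**Figure D2:**
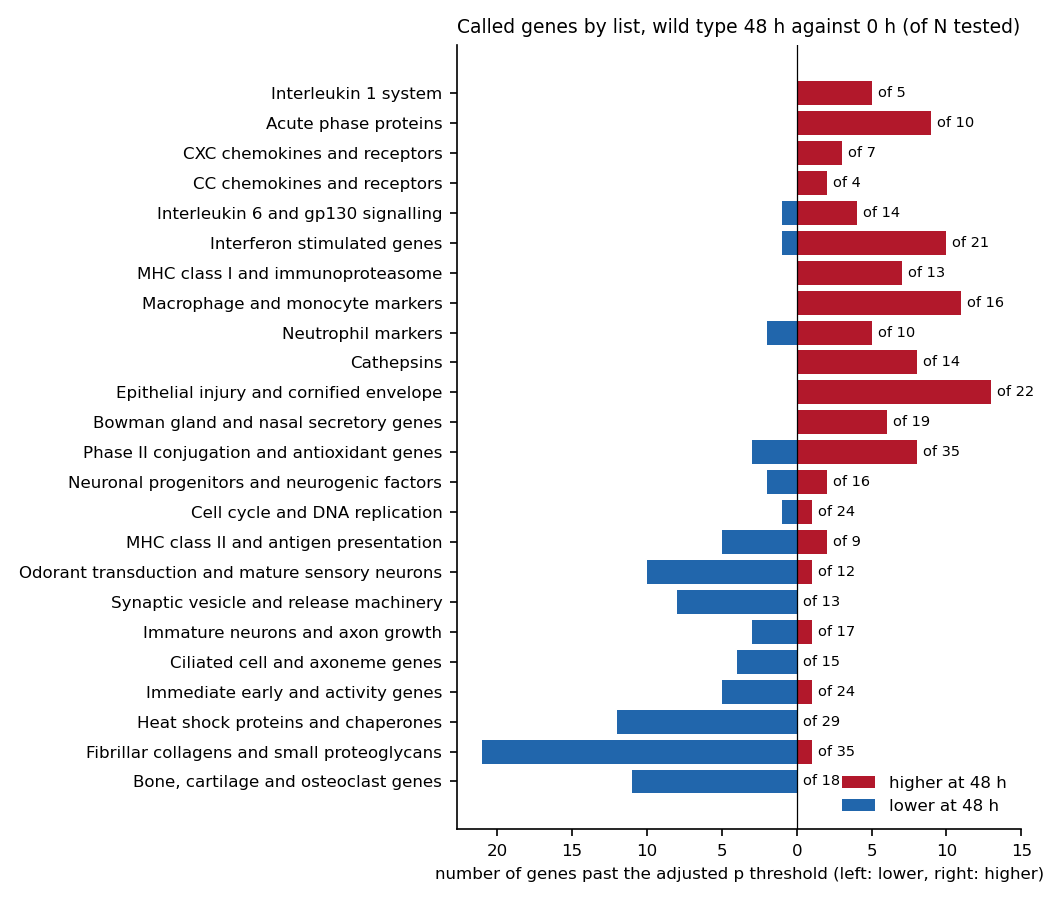
Bars to the right count the genes of each list that were higher at 48 h and bars to the left those that were lower, and the number beside each bar is the number tested. The collagen list has 21 genes lower of 35 tested, and the epithelial injury list has 13 higher of 22.

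Chemokines that attract neutrophils and monocytes were among the most changed genes. Cxcl2, a neutrophil chemokine, had signals of 5200.0, 3463.0 and 7908.8 at 48 h against 101.3, 144.9 and 75.4 at 0 h. Every 48 h array was far above every 0 h array, and since 0 h signals lay at the floor the rise was at least 42.4-fold (5.40 ± 0.54 log2 units, SE; adjusted p = 5.88e-05). Cxcl1, its close relative, had 3542.4, 4770.6 and 2534.7 at 48 h against 664.2, 406.2 and 372.2 at 0 h, a rise of 2.91 ± 0.40 log2 units (adjusted p = 0.000401), and its other probe set rose by 3.16. Ccl2, the main monocyte chemokine, had 991.6, 853.7 and 926.3 at 48 h against 19.1, 81.2 and 16.6 at 0 h, at least 8.11-fold higher (adjusted p = 0.00012). Cxcl5, another neutrophil chemokine, rose by 1.87 ± 0.41 and Ccl9, a CC chemokine, by 1.79 ± 0.25. In the CXC chemokine and receptor list 3 of 7 tested genes rose and none fell. The lymphoid and neuronal chemokines Cxcl12 and Cx3cl1 differed by -0.48 and 0.05 and were not called, although another probe set of Cxcl12 differed by 0.35 and its brightest was called without the 48 h replicate 2 array (-0.76, adjusted p = 0.00648). In the CC list 2 of 4 rose. Under a filter on the mean signal, which drops genes bright at 48 h alone, 2 of 6 rose in the CXC list and 1 of 2 in the CC list. The monocyte receptor Ccr2 stood at 1.08 without passing the test (adjusted p = 0.0961), although it was called in the fit of only the 6 arrays (adjusted p = 0.0086).

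The upstream sequences of Cxcl2 and Cxcl1 are shown because these 2 neighbouring genes had the largest rises of the CXC list. Both are the 250 bases before the start in RefSeq's GRCm38.p6, plus strand, 5′ to 3′, at chr5:90903649-90903898 for Cxcl2 and chr5:90890995-90891244 for Cxcl1, and capitals mark matches on either strand to a form of the kappaB word, which is GGG, any 3 bases and then TTCC or TCCC.
Cxcl2: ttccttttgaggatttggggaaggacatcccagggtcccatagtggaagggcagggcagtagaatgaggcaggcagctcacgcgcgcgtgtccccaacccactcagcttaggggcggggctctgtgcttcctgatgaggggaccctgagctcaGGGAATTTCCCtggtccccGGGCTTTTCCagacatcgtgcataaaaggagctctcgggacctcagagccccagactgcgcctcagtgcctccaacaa
Cxcl1: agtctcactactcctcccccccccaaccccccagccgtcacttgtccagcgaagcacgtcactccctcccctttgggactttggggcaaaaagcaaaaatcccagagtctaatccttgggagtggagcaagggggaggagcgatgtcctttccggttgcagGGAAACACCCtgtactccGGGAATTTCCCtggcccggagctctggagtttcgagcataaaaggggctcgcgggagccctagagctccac
Each window held 3 matches, of which 2 overlap in the palindromic stretch in capitals, and in Cxcl1 the remaining match, GGAAACACCC, is on the opposite strand. Of 32851 promoters of the same length, 8.8% held at least 1 match. A match is a description of the letters and does not show that a factor binds there.

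All 5 tested genes of the interleukin 1 list rose, with a median of 1.84 log2 units. Il1b, the secreted inflammatory cytokine, had signals of 1281.1, 1027.9 and 1970.0 at 48 h against 204.0, 285.9 and 239.5 at 0 h (2.51 ± 0.39, adjusted p = 0.000915). Its inhibitors rose with it: the receptor antagonist Il1rn was at least 5.02-fold higher and the decoy receptor Il1r2 rose by 1.84 ± 0.42. The signalling adaptor Myd88 rose by 0.53 and the kinase Irak1 by 0.34. The call of Myd88 held only when the 48 h replicate 2 array was the one left out (adjusted p up to 0.152). Of the list's 12 genes on the array 7 were too dim to be tested, and under the filter on the mean signal 3 of 3 rose.

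Of 14 tested genes of the interleukin 6 and gp130 list, 4 rose and 1 fell, or 35.7%, against 19.8% of all genes. The cytokine Il6 had 788.4, 1525.5 and 1753.6 at 48 h against 576.8, 334.1 and 441.5 at 0 h, so that all 48 h arrays were higher (1.54 ± 0.28, adjusted p = 0.00248). Osmr, the oncostatin M receptor, rose by 1.94 ± 0.36 and Socs3, the feedback inhibitor that this pathway induces, by 1.02 ± 0.21. The shared receptor chain Il6st rose by 0.32, against 0.26 without a call on another probe set, and the transcription factor Stat3 differed by 0.20 without a call. Csf3r, the receptor for the neutrophil growth factor, fell by 0.63 on 1 probe set, while 2 dimmer probe sets that were not tested read 1.54 and 1.07 higher at 48 h. The call of Csf3r held only when the 48 h replicate 1 array was the one left out (adjusted p up to 0.14). The call of Il6st held only when the 48 h replicate 3 or 0 h replicate 1 array was the one left out (adjusted p up to 0.126). In the tumour necrosis factor and NF-kappaB list 2 of 14 tested genes were called, or 14.3%, against 19.8% of all genes. Bcl3, a nuclear IkappaB family member, rose by 2.21 ± 0.52, with signals of 1016.6 to 1190.7 at 48 h against 115.8 to 486.0 at 0 h, and Nfkbiz rose by 0.58. Their relative Nfkbia and the subunits Rela and Relb were not called. Of 10 tested transcription factors in the CEBP and acute phase list 2 were called, or 20.0%, near the share of all genes. Cebpb rose by 0.54 ± 0.11 and Irf1 by 0.85 ± 0.18, and Cebpd, at 0.37, was not called.

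Acute phase proteins, best known as liver products secreted into blood during inflammation but also made by injured epithelia, rose in 9 of 10 tested genes, with a median of 1.82 log2 units. Another 18 genes of the list on the array were too dim for the test, and under the filter on the mean signal 7 of 7 rose. Saa3, a serum amyloid A made outside the liver, had 5395.8, 5731.9 and 3575.4 at 48 h against 196.4, 138.9 and 178.1 at 0 h, a 28.3-fold rise (4.82 ± 0.35, adjusted p = 3.57e-06). Orm1, an acid glycoprotein, had 3025.1, 3043.3 and 2481.5 at 48 h against 252.7, 50.7 and 69.6 at 0 h, at least 19.1-fold higher (adjusted p = 4.32e-05). Lcn2, which withholds iron from bacteria, had 44401.7, 34957.9 and 38509.2 at 48 h against an already bright 5422.3, 3686.2 and 5458.8 at 0 h (3.03 ± 0.35, adjusted p = 0.000148). The 2 groups did not overlap for any of these 3 genes. A dimmer probe set of Lcn2 differed by 0.43 and was not called (adjusted p = 0.104). Serpina3n, a protease inhibitor, rose by 1.95 ± 0.31, the copper carrier Cp by 1.92, the haemoglobin scavenger Hp by 1.72, the leukocyte protease inhibitor Slpi by 1.49 (by 3.40 on a second probe set) and the lipopolysaccharide binding protein Lbp by 1.13. The call of Hp held only when the 48 h replicate 1 or 0 h replicate 1 array was the one left out (adjusted p up to 0.116). Saa2 was not called at 0.76, although it was called without the 0 h replicate 1 array (1.55, adjusted p = 0.00459). Lcn2 is also in neutrophil granules, so it counts in that list as well. Kng1, the kininogen precursor of bradykinin, was outside the list and rose by 2.58 ± 0.27, with signals of 4985.0 to 7739.7 at 48 h against 687.7 to 1359.3 at 0 h.

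Upstream sequences of the 3 most raised acute phase genes with a RefSeq entry follow, since these genes moved together. Capitals mark every match to the words searched, on both strands: the kappaB word above, TTGCNNAA for CEBP factors, GAAA, any 2 bases and GAAA for the interferon response, TTCNNNGAA for STAT factors, and 3 alternating blocks of GAA and TTC with 2 bases between blocks for heat shock elements.
Saa3: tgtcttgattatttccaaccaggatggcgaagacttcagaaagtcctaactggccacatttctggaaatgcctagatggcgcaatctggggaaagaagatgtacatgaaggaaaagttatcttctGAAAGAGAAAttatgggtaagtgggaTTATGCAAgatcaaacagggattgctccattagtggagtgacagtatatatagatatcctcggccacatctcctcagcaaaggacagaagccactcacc
Lcn2: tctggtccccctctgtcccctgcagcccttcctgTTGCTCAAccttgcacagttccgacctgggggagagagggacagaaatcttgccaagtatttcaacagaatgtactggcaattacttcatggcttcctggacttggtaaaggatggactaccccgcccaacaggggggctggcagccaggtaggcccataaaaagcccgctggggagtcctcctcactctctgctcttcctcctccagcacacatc
Serpina3n: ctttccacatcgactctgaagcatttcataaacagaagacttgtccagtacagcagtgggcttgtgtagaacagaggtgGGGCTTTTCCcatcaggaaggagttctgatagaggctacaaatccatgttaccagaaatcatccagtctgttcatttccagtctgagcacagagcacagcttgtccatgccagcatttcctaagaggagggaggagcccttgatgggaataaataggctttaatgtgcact
The windows are chr7:46715677-46715926 on the minus strand for Saa3, chr2:32387740-32387989 on the minus strand for Lcn2 and chr12:104406458-104406707 on the plus strand for Serpina3n. Saa3 held a CEBP word, read on the opposite strand, 99 to 92 bases before its start and an interferon word, Lcn2 held a CEBP word 216 to 209 bases before its start, and Serpina3n held a kappaB word. Of all 32851 promoters 9.6% held a CEBP word and 3.0% an interferon word. Among the list's genes with an entry, 3 of 5 called genes and the 1 gene not called held a CEBP word.

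Interferon stimulated genes rose in 10 of 21 tested, with a median of 0.50 log2 units, and under the filter on the mean signal 7 of 13 rose and 0 fell. The guanylate binding protein Gbp2, a GTPase of the defence against intracellular microbes, had 1845.2, 673.9 and 993.0 at 48 h against 258.9, 181.0 and 258.8 at 0 h (2.22 ± 0.37, adjusted p = 0.00138). Related GTPases moved in the same direction: Iigp1 rose by 1.67 ± 0.32, Ifi47 by 1.62 ± 0.24, Gbp3 by 1.44 ± 0.29 and Irgm1 by 1.02. The genes that mark a type I interferon response were mixed. Usp18 rose by 1.08 and Isg15 by 0.64, while Ifit1, Irf7 and Rsad2 were not called at 0.36, -0.35 and -0.06. Ifit2 fell by 0.58 at an adjusted p of 0.0498. The call of Ifit2 held only when the 0 h replicate 1 array was the one left out (adjusted p up to 0.177). The call of Usp18 was lost without the 48 h replicate 1 array (adjusted p up to 0.0648). The upstream windows of Gbp2, chr3:142620413-142620662, and Ifi47, chr11:49076337-49076586, both on the plus strand, are shown as the most raised genes of this list with an entry that could be printed.
Gbp2: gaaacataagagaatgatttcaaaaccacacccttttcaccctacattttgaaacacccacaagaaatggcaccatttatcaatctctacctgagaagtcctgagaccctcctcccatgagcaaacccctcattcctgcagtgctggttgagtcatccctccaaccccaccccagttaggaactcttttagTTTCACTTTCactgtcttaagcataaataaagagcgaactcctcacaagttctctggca
Ifi47: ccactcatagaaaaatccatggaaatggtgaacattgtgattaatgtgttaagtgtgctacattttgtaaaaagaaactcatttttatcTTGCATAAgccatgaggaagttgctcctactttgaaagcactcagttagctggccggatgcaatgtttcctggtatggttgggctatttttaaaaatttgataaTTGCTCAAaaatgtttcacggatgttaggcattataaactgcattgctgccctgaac
Gbp2 held an interferon word, on the opposite strand, and Ifi47 held 2 CEBP words and no interferon word in this window. Over the list, 4 of 8 called genes and 3 of 9 genes not called held an interferon word.

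The 2 antigen presentation pathways were measured with opposite directions. Of 13 tested MHC class I and immunoproteasome genes, 7 rose and none fell, with a median of 0.53. The class I heavy chains H2-D1 and H2-K1 rose by 0.87 ± 0.15 and 0.76 ± 0.16, and these near-identical copies share probes, so their signals may not be separate. The immunoproteasome subunit Psmb8 rose by 0.85 ± 0.16 and the peptide loading factor Tapbp by 0.56. Of the other Tapbp probe sets 1 was called in the opposite direction (-0.75, adjusted p = 0.0367) and 1 was not called (0.55), so its direction is not settled. Another probe set of H2-K1 was not called at 0.25. B2m, the shared light chain, was not called at 0.42, although it was called without the 48 h replicate 3 array (0.69, adjusted p = 0.0487). Of 9 tested MHC class II genes, 5 fell and 2 rose, with a median of -0.58. The class II chain H2-Aa had 942.7, 1355.3 and 977.8 at 48 h against 2624.0, 2099.4 and 2230.4 at 0 h (-1.10 ± 0.26, adjusted p = 0.00921), and all 48 h arrays lay below all 0 h arrays. H2-Ab1 fell by 0.94 ± 0.24, H2-Eb1 by 0.81 ± 0.20 and the peptide exchange factor H2-DMb2 by 0.91 ± 0.13, while the invariant chain Cd74 was not called at -0.53, although Cd74 was called without the 48 h replicate 2 array (-0.76, adjusted p = 0.0425). The 2 rises were the protease Ctss and the thiol reductase Ifi30, both lysosomal. Without the 48 h replicate 1 array the class II list had 3 falls, and the calls of H2-Ab1 and H2-Eb1 did not hold (adjusted p up to 0.0567 and 0.0526), the call of H2-Eb1 also being lost without the 0 h replicate 1 array. The call of Ctss held only when the 48 h replicate 3 or 0 h replicate 1 array was the one left out (adjusted p up to 0.115). The call of Ifi30 was lost without the 48 h replicate 1 or 0 h replicate 2 or 3 array (adjusted p up to 0.0901).

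Markers of macrophages and monocytes rose in 11 of 16 tested genes, and none fell. Of the 16, 1 was tested through its 48 h signals alone, and under the filter on the mean signal 10 of 13 rose. The summed signal of the 16 genes was 49800.6 to 50303.0 at 48 h and 26243.9 to 30962.3 at 0 h, without overlap. Cd53, a leukocyte tetraspanin, had 1684.2, 1352.2 and 1475.7 at 48 h against 506.5, 511.2 and 523.9 at 0 h (1.54 ± 0.20, adjusted p = 0.000211). Cd68, a macrophage lysosomal protein, had 2545.2, 1791.3 and 2517.3 at 48 h against 1344.8, 1328.9 and 1200.6 at 0 h (0.81 ± 0.17, adjusted p = 0.005). The signalling adaptor Tyrobp rose by 0.98 ± 0.20 and the lectin Lgals3, also made by epithelia, by 1.14 ± 0.27. Lyz2, a lysozyme of macrophages and glands, rose by 1.36 ± 0.27. Csf1r, the macrophage growth factor receptor, differed by -0.01, and Adgre1, a macrophage surface antigen, was at the floor on 2 of 3 arrays at 48 h and 1 of 3 at 0 h. Msr1 itself, whose signals are given above, was too dim in wild type to be tested. In bulk tissue, more or fewer cells of a type and more or less RNA per cell cannot be told apart.

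Neutrophil markers did not all move the same way. S100a8 and S100a9, the 2 chains of calprotectin in the neutrophil cytoplasm and in stressed epithelium, rose by 2.09 ± 0.35 and 2.01 ± 0.37. S100a8 had 17538.7, 10282.0 and 15394.3 at 48 h against 3198.1, 5741.1 and 1962.5 at 0 h. In contrast Camp, the cathelicidin of neutrophil precursors and granules, had 467.7, 569.9 and 666.7 at 48 h against 1945.9, 4598.1 and 925.0 at 0 h (-1.85 ± 0.44, adjusted p = 0.0105), and the granule proteins Ltf and Ngp were not called at 0.36 and -0.65. In all 5 of 10 tested genes rose and 2 fell, and the summed signal was 92643.8 to 125526.1 at 48 h and 48395.1 to 55478.6 at 0 h. Bright members weigh most in this sum, above all Lcn2, whose mean was 39289.6 at 48 h and 4855.8 at 0 h. The T cell markers Cd3e and Cd8a and the mast cell protease Mcpt4 were at or below the floor on all 6 arrays. Among 9 tested B and plasma cell genes the 2 rises, or 22.2% against 19.8% of all genes, were Xbp1 and Sdc1, which epithelial cells also make. The immunoglobulin genes Ighm, Igha and Jchain were not called, although Ighm was called without the 0 h replicate 3 array (-0.89, adjusted p = 0.0272). The part of these cells in the rises of chemokine, interleukin 1 and interferon genes was not tested.

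Genes of lysosomal digestion rose in part. Of 14 tested cathepsin genes 8 rose and none fell: Ctsl rose by 0.97 ± 0.17, Ctsh by 0.89 ± 0.15, and the cysteine proteases Ctsz and Ctsc by 0.58 each, against 0.05 on another probe set of Ctsc. The osteoclast protease Ctsk was not called at -0.51, although it was called without the 48 h replicate 3 array (-0.90, adjusted p = 0.00288). Lysosomal membrane proteins and hydrolases rose in 5 of 29 and fell in 5, or 34.5% called, against 19.8% of all genes. Gusb and Fuca1 were each higher by 0.68. Among the falls, Acp5, the tartrate resistant phosphatase of osteoclasts, stood at -0.98 and Neu1 at -0.63. The number of falls was 1 to 5 when each of the 6 arrays was left out in turn, and 3 or fewer without the 48 h replicate 1, 48 h replicate 2, 0 h replicate 1 or 0 h replicate 3 array. The call of Acp5 held only when the 48 h replicate 3 array was the one left out (adjusted p up to 0.132). The call of Neu1 was lost without the 48 h replicate 2 or 0 h replicate 3 array (adjusted p up to 0.0556). Of 15 tested scavenger and lipoprotein receptor genes 6 rose, among them the cholesterol exporter Abca1, by 0.84 ± 0.13, and Tyro3, a receptor for dying cells, by 0.54 ± 0.12. Gas6, a ligand of Tyro3, fell by 0.65 ± 0.13. The rises numbered 3 without the 0 h replicate 1 or the 0 h replicate 3 array.

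Epithelial injury genes rose in 13 of 22 tested, and none fell. Sprr2f was tested through its 48 h signals alone, and under the filter on the mean signal 12 of 21 rose. Krt6a, a keratin of wounded and stratified epithelium, had 7311.5, 4477.8 and 4894.0 at 48 h against 792.9, 530.5 and 762.6 at 0 h (2.99 ± 0.44, adjusted p = 0.00065), and its other probe set rose by 3.51. Sprr2f, a cornified envelope precursor, had 3474.5, 636.2 and 8478.6 at 48 h against 292.6, 146.0 and 246.9 at 0 h, so the 48 h arrays were all higher but spread widely among themselves (3.60 ± 0.68, adjusted p = 0.00311). Among simple epithelium keratins Krt7 rose by 1.11, Krt19 by 0.86 and Krt18 by 0.41, and Krt8 was not called at 0.20. The annexins Anxa1, Anxa3 and Anxa2, which bind membranes, rose by 1.20, 1.20 and 0.76. Cldn4, a tight junction protein, and Sprr1a rose by 1.57 and 1.87. The call of Cldn4 held only when the 48 h replicate 2 or 0 h replicate 1 array was the one left out (adjusted p up to 0.122). The call of Sprr1a held only when the 48 h replicate 2 array was the one left out (adjusted p up to 0.145). The call of Krt19 was lost without the 48 h replicate 2 or 3 or 0 h replicate 2 array (adjusted p up to 0.0886). The call of Krt18 held only when the 48 h replicate 2 or 3 array was the one left out (adjusted p up to 0.109). The list had 8 rises without the 48 h replicate 1 array and 7 without the 0 h replicate 2 array.

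In the basal epithelium list 4 of 11 rose: the integrins Itga6 and Itgb4 of basal cell attachment, by 0.63 ± 0.14 and 0.68 ± 0.19, the junction protein Perp by 0.72 and the adhesion receptor Icam1 by 1.70 ± 0.44. That is 36.4% called, against 19.8% of all genes. Icam1 was tested through its 48 h signals alone, and under the filter on the mean signal 3 of 10 rose. The list had 1 rise without the 0 h replicate 2 array. The call of Itgb4 held only when the 48 h replicate 1 or 0 h replicate 3 array was the one left out (adjusted p up to 0.0962). The call of Perp was lost without the 48 h replicate 1 or 0 h replicate 2 array (adjusted p up to 0.0747). The call of Icam1 was lost without the 0 h replicate 2 array (adjusted p up to 0.07). Trp63, the master factor of basal cells, was not called at 0.24, and Krt5 and Krt14, the keratins that define horizontal basal cells, were at or below the floor on all 6 arrays, so these probe sets do not report that cell type here. Gland and secretory genes rose in 6 of 19 tested, or 31.6%, against 19.8% of all genes called. Of these genes 6 or 7 rose whichever of the 6 arrays was left out. The mucin Muc1 had 14531.1, 11339.4 and 13612.5 at 48 h against 5262.0, 4467.3 and 5956.7 at 0 h (1.33 ± 0.15, adjusted p = 0.00015). Prom1, a protein of apical membrane protrusions, rose by 1.34 ± 0.22, Agr2, which folds mucins, by 1.10 ± 0.18, and Pigr, which carries antibodies into mucus, by 1.05. The odorant binding protein Obp1a was not called at 0.08. Clu, an extracellular chaperone of injured epithelium, had 38994.7, 31322.9 and 25032.0 at 48 h against 8056.7, 7226.7 and 8062.7 at 0 h (2.01 ± 0.24, adjusted p = 0.000197).

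**Figure D3:**
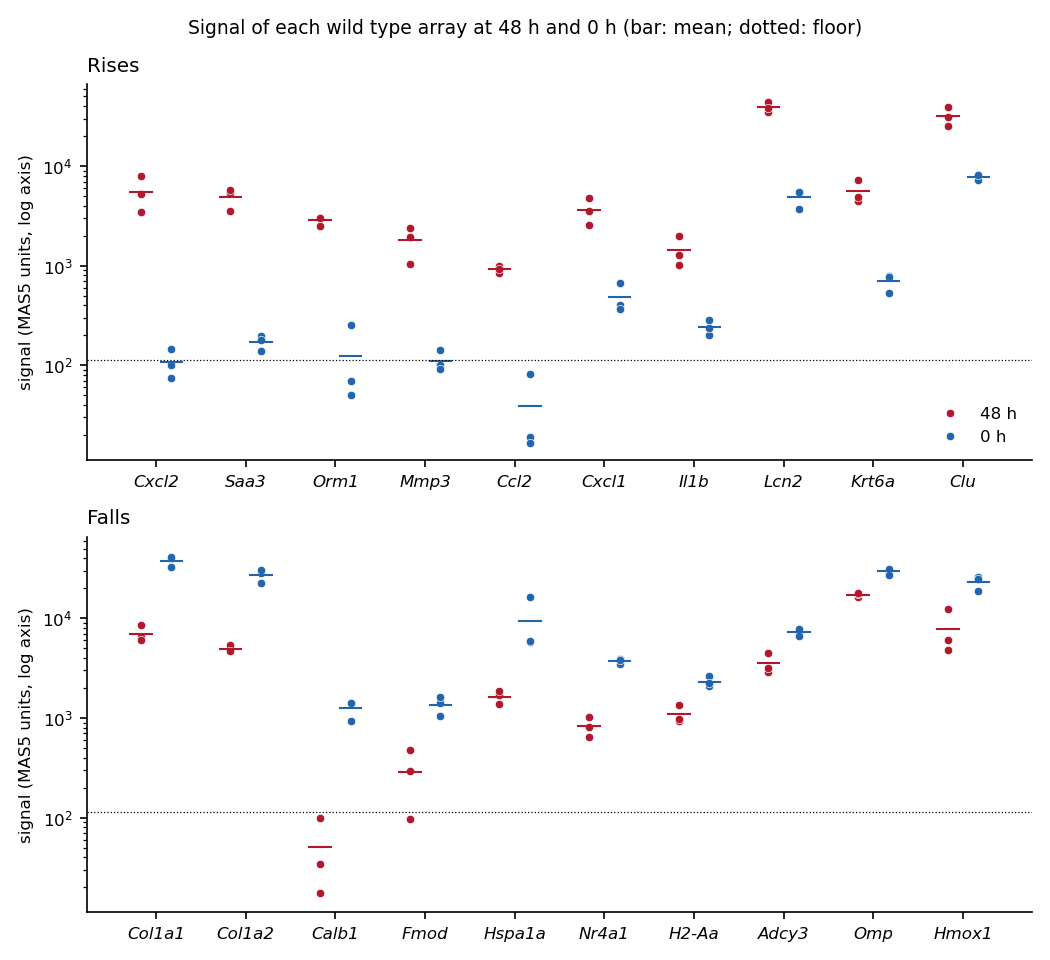
Each point is the signal of 1 wild type array on a log axis, 48 h in red to the left of 0 h in blue, with bars at the means of 3 arrays and a dotted line at the floor of 113.7. The 48 h and 0 h points are separate for all 20 genes drawn, and Calb1 at 48 h and Ccl2 at 0 h lie wholly under the floor.

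Genes of mature olfactory sensory neurons fell. Omp, the olfactory marker protein, had 16299.5, 17497.5 and 17922.8 at 48 h against 29997.1, 31604.6 and 27105.5 at 0 h, 1.71-fold lower and without overlap (-0.78 ± 0.10, adjusted p = 0.000285). The odorant cascade's adenylyl cyclase Adcy3 had 2899.2, 3189.7 and 4532.3 at 48 h against 7280.3, 7868.2 and 6633.5 at 0 h (-1.06 ± 0.13, adjusted p = 0.000211). Its cyclic nucleotide gated channel Cnga2 fell by 0.81 ± 0.14, and by 0.81 on its other probe set. The transcription factors Ebf3, Ebf1 and Ebf2 fell by 0.62, 0.49 and 0.42, and the adhesion protein Ncam2 by 0.78. The call of Ncam2 held only when the 48 h replicate 3 array was the one left out (adjusted p up to 0.128). The call of Ebf1 held only when the 48 h replicate 2 or 0 h replicate 3 array was the one left out (adjusted p up to 0.103). The call of Ebf2 held only when the 48 h replicate 3 or 0 h replicate 1 array was the one left out (adjusted p up to 0.0797). In the whole list 10 of 12 fell, with a median of -0.52 and a summed signal of 59440.9 to 68514.8 at 48 h and 85719.6 to 98667.7 at 0 h. The 1 rise, the G protein subunit Gnb1, was 1.29 on its brightest probe set and 0.00 and 0.36 on its others. The number of falls was 6 without the 48 h replicate 1 array and 5 without the 0 h replicate 2 array. In a fit of all 30 arrays, which adds those labelled SR-A mutant, the call of Omp did not hold (adjusted p = 0.602). It held in a fit of 27 arrays, which leaves out only those labelled SR-A mutant 2 h (adjusted p = 3.68e-05).

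Genes of the presynaptic terminal fell alongside, in 8 of 13 tested, with a median of -0.52 and no rise. The calcium sensor Syt1 had 2437.7, 2333.0 and 2729.1 at 48 h against 5797.5, 4797.5 and 4328.0 at 0 h (-0.99 ± 0.13, adjusted p = 0.000241). The SNARE protein Snap25 fell by 0.62 ± 0.12 and Syn2 by 0.54, and Vamp2 was not called at -0.14. The list had 4 falls without the 48 h replicate 1 array and 5 without the 0 h replicate 3 array. Gap43, the growth cone protein, had 5905.4, 8598.0 and 7636.1 at 48 h and 6737.0, 9969.0 and 9892.5 at 0 h, and the groups overlapped (-0.26 ± 0.18, adjusted p = 0.342). Of 17 tested genes of immature neurons and axon growth 3 fell and 1 rose, or 23.5%, against 19.8% of all genes. The rise, Ablim1, was tested through its 48 h signals alone, and under the filter on the mean signal 0 of 16 rose and 3 fell. The falls were the axon guidance receptors Plxna3, by 1.21 ± 0.15, and Nrp1, by 0.80 ± 0.20, and the tubulin regulator Stmn3. Other probe sets of Nrp1 and Stmn3 were not called at -0.45 and -0.13, and the microtubule protein Dcx was not called at -0.28. The call of Stmn3 was lost without the 48 h replicate 1 or 0 h replicate 2 or 3 array (adjusted p up to 0.0884). Epha7 and Epha5 are receptors for ephrin guidance cues. Epha7 fell by 2.00 ± 0.18, and Epha5 fell by 1.73 ± 0.23.

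Of 16 tested progenitor genes 2 rose and 2 fell, and 19.8% of all genes were called. Pax6 rose by 0.75 ± 0.11, with signals of 1239.7 to 1510.7 at 48 h against 771.8 to 840.8 at 0 h. Sox2 rose by 0.73 ± 0.21. The call of Sox2 held only when the 48 h replicate 1 array was the one left out (adjusted p up to 0.0904). Both are transcription factors of the sustentacular and basal layers. Kit and Bmp4 fell by 0.48 and 0.49, the call of Bmp4 not holding without the 0 h replicate 1 or 3 array (adjusted p up to 0.0726), and the neurogenic factors Insm1 and Neurod1, at 0.20 each, were not called. Of 24 tested cell cycle genes 1 rose and 1 fell, or 8.3%, against 19.8% of all genes, with a median of -0.04. The proliferation marker Mki67 stood at -0.44 and the replication clamp Pcna at -0.09, both without a call. Among 20 tested apoptosis genes 3 rose and 2 fell. Of the rises, Bid and Birc3 were tested through their 48 h signals alone, and under the filter on the mean signal 1 of 16 rose and 2 fell. The death agonists Bid and Bcl2l11 rose by 1.30 ± 0.17 and 0.52 ± 0.10, while Bak1 was not called. Bcl2 was not called on its brightest probe set, and was on another (-0.39).

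Collagens and other extracellular matrix genes fell. Col1a1, a chain of type I collagen, had 6480.1, 8492.7 and 6126.1 at 48 h against 39979.1, 41512.7 and 32640.3 at 0 h (-2.44 ± 0.17, adjusted p = 3.57e-06). Its partner chain Col1a2 had 4859.5, 5379.9 and 4663.6 at 48 h against 28525.3, 30248.6 and 22849.1 at 0 h (-2.45 ± 0.17, adjusted p = 3.57e-06). Both groups of arrays were tight and stood 5.44-fold and 5.45-fold apart. Other probe sets gave smaller differences, -0.62 with a call for Col1a1 and -0.09 without a call for Col1a2. In the list of fibrillar collagens and small proteoglycans 21 of 35 fell and 1 rose, with a median of -0.67 and a summed signal of 91975.6 to 104939.2 at 48 h and 180976.6 to 213761.7 at 0 h. Col3a1 fell by 1.63, the collagen binding proteoglycan Lum by 1.58, the matrix glycoprotein Sparc by 1.59 and the collagen chaperone Serpinh1 by 1.20. Fmod, another collagen binding proteoglycan, had a 48 h array at the floor and was at least 5.35-fold lower. The single rise was Lox, the enzyme that crosslinks collagen, by 0.94. The number of falls was 17 to 21 when each of the 6 arrays was left out in turn.

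Bone and cartilage genes fell in 11 of 18 tested, and none rose. The bone proteoglycan Omd had 244.7, 689.2 and 362.8 at 48 h against 1884.8, 1331.2 and 1636.6 at 0 h (-2.02 ± 0.34, adjusted p = 0.00158). Dmp1, a matrix protein of osteocytes, fell by 2.09 ± 0.53, a call that did not hold without the 48 h replicate 2 or the 0 h replicate 1 array (adjusted p up to 0.0593), and Col11a2, a cartilage collagen, was at least 6.10-fold lower. The summed signal of the list was 39843.1 to 68676.3 at 48 h and 93337.7 to 109814.8 at 0 h. Col1a1 and Ogn are in both this list and the collagen list, and the mean of Col1a1 was 7033.0 at 48 h and 38044.0 at 0 h. The number of falls was 6 to 10 when each of the 6 arrays was left out, with 6 without the 48 h replicate 1 array or any 0 h array. How much turbinate bone each dissection held was not measured, and its part in the fall of the collagens was not tested. Some matrix degrading enzymes were higher. Mmp3, stromelysin, which was tested through its 48 h signals alone, had 1935.2, 2417.3 and 1036.2 at 48 h against 141.4, 100.6 and 92.1 at 0 h, at least 13.8-fold higher (3.79 ± 0.35, adjusted p = 3.37e-05). Plaur, the urokinase receptor, rose by 0.98 ± 0.23 and the membrane protease Adam9 by 0.65, while Mmp14, the membrane collagenase, fell by 0.75, a call lost without the 48 h replicate 2 or 0 h replicate 1 array (adjusted p up to 0.0717), and the inhibitor Timp1 was not called at 0.84, although it was in the fit of 27 arrays (adjusted p = 0.0427). In all 5 of 13 tested matrix protease genes rose and 1 fell, and under the filter on the mean signal 3 of 11 rose and 1 fell.

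Chaperones fell without an exception in direction among those called, in 12 of 29 tested heat shock genes. Hspa1a, the inducible HSP70, had 1703.9, 1369.6 and 1852.3 at 48 h against 5769.4, 5896.6 and 16558.3 at 0 h (-2.34 ± 0.56, adjusted p = 0.0103). The 0 h replicate 3 array was well above the other 0 h arrays. The same array was the highest of the 0 h group for the cochaperone Dnajb1, which had 1230.9, 1223.4 and 1164.8 at 48 h against 2314.2, 2285.2 and 4827.0 at 0 h. Hsph1, the HSP110 exchange factor, fell by 1.11 ± 0.33, a call that did not hold without that array, the 48 h replicate 1 or the 48 h replicate 2 array (adjusted p up to 0.122). Dnaja1 fell by 0.86, Hspa8, the constitutive HSP70, by 0.58 and Hsp90aa1 by 0.44. The call of Hspa8 held only when the 48 h replicate 3 or 0 h replicate 1 array was the one left out (adjusted p up to 0.0693). The call of Hsp90aa1 held only when the 48 h replicate 2 or 0 h replicate 1 array was the one left out (adjusted p up to 0.126). Hspa4 fell by 1.16 on its brightest probe set, while its 3 other tested probe sets stood at 0.50, 0.07 and 0.27. The list had 7 falls without the 48 h replicate 1 or 0 h replicate 3 array. No heat shock word was found in the upstream windows of Hspa1a and Dnajb1. Over the list's genes with an entry, 1 of 10 called and 1 of 13 not called held the word, and 0.5% of all promoters did.

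Of 24 tested immediate early genes, those induced within minutes of a stimulus, 5 fell and 1 rose. Nr4a1, an orphan nuclear receptor, had 809.6, 638.5 and 1028.7 at 48 h against 3456.4, 3902.1 and 3810.3 at 0 h (-2.20 ± 0.43, adjusted p = 0.00353). Atf3, a stress factor, had 1021.1, 1015.2 and 1155.3 at 48 h against 1739.6, 1967.9 and 4253.4 at 0 h, where the 0 h replicate 3 array was again the highest, and its call did not hold without it or without the 48 h replicate 1 or 2 array (adjusted p up to 0.108). Ier3, a survival factor, rose by 1.26 ± 0.27, and Fos, Egr1 and Junb were not called at -0.58, -0.21 and 0.09. The number of falls was 2 without the 48 h replicate 1 or 2 array and 3 without the 0 h replicate 1 or 3 array.

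Calb1, the calcium buffer calbindin, had the largest fall of the genes tested. Its signals were 17.6, 100.2 and 34.1 at 48 h, all under the floor, against 938.4, 1412.5 and 1415.4 at 0 h, at least 10.9-fold lower (adjusted p = 8.57e-05). Calbindin is abundant in neurons of the olfactory bulb, and a list of bulb and central neuron genes was also measured. Of its 19 genes on the array 4 were bright enough to test, and Calb1 and Calb2, another calcium buffer, fell, Calb2 by 0.39, a call lost without the 0 h replicate 2 array (adjusted p = 0.0619). The interneuron enzyme Gad1 had signals of 133.1 to 148.8 at 48 h and 96.9 to 194.9 at 0 h, near the floor, and Th was at the floor on 2 of 3 arrays at 48 h.

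Among detoxifying and antioxidant genes the changes went both ways. Gpx2, an epithelial glutathione peroxidase, had 21079.8, 14333.0 and 21352.4 at 48 h against 6240.4, 4131.9 and 6111.3 at 0 h (1.79 ± 0.22, adjusted p = 0.000208). Hmox1, the haem degrading enzyme induced by oxidative stress, had 6036.4, 4773.5 and 12465.4 at 48 h against 26035.7, 18900.7 and 25054.2 at 0 h (-1.70 ± 0.30, adjusted p = 0.00197), and Srxn1, which repairs peroxiredoxins, fell by 1.33 ± 0.22, against -0.22 without a call on another probe set. Of 35 tested phase II and antioxidant genes 8 rose and 3 fell, or 31.4%, against 19.8% of all genes. The rises numbered 4 without the 48 h replicate 1 or 2 array and 5 without the 0 h replicate 3 array. Mgst2, a membrane glutathione transferase, rose by 2.25 ± 0.36. Of 23 tested phase I genes, which the sustentacular cells and glands of this tissue express in quantity, 1 rose and 2 fell. That is 13.0%, against 19.8% of all genes. The rise was Mcam, by 0.44, an adhesion molecule that is no phase I enzyme and entered the list through an old synonym. The falls were the cytochrome Cyp2e1, by 0.72, and the monooxygenase Fmo1, by 0.43. The call of Mcam held only when the 48 h replicate 3 or 0 h replicate 3 array was the one left out (adjusted p up to 0.118). The call of Cyp2e1 held only when the 48 h replicate 1 array was the one left out (adjusted p up to 0.162). The call of Fmo1 held only when the 48 h replicate 2 array was the one left out (adjusted p up to 0.189). Cyp2f2 was not called at 0.06, and the summed signal of the list overlapped between the groups, at 165884.3 to 218457.3 at 48 h and 184173.2 to 188664.2 at 0 h.

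Levels at the times between place these differences in the series, with means of 3 arrays given at 0, 2, 8, 16 and 48 h. Cxcl2 had means of 107.2, 133.4, 496.7, 273.6 and 5523.9, and Saa3 had 171.1, 160.2, 208.5, 470.6 and 4901.0, so that for both the 48 h mean stood far above the 16 h mean. Lcn2 had 4855.8, 2866.4, 14666.1, 22630.2 and 39289.6, and Ccl2 had 39.0, 239.2, 571.3, 366.1 and 923.9. All 4 genes had higher means at 8 and 16 h than at 0 h, a step that was not tested here. Calb1 had 1255.4, 1326.5, 879.8, 63.7 and 50.6, with the 16 h mean already under the floor. Col1a2 had 27207.7, 26292.7, 17060.7, 20132.3 and 4967.7, Omp had 29569.1, 29563.4, 30245.8, 24302.0 and 17239.9, and Nr4a1 had 3722.9, 4505.2, 1806.3, 663.3 and 825.6. The late step was tested as 48 h against 16 h, which uses the same 48 h arrays, so the 2 comparisons are not independent. It called 222 genes, or 4.22% of those tested, of which 104 rose (1.97%) and 118 fell (2.24%). Over probe sets it called 280 (4.13%), 135 of them higher (1.99%) and 145 lower (2.14%), and without the 48 h replicate 1 array it called 71. The differences of 48 h from 16 h were 4.50 for Cxcl2, 3.49 for Saa3, 3.50 for Il6, 3.27 for Mmp3 and 3.07 for Cxcl1, and -2.37 for Col1a1, -2.01 for Col1a2, -2.18 for Fmod and -0.49 for Omp, all called. No such difference was called for Lcn2 (0.79, adjusted p = 0.219), Il1b (1.35, 0.07), Nr4a1 (0.30, 0.734), Hspa1a (0.12, 0.926) or Hmox1 (-0.19, 0.767). Cxcl2, Saa3 and Mmp3 were tested through their 48 h signals alone, a choice that favours a late rise. The 16 h mean of Il6, 92.5, was under the floor, so its late rise is a lower bound.

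**Figure D4:**
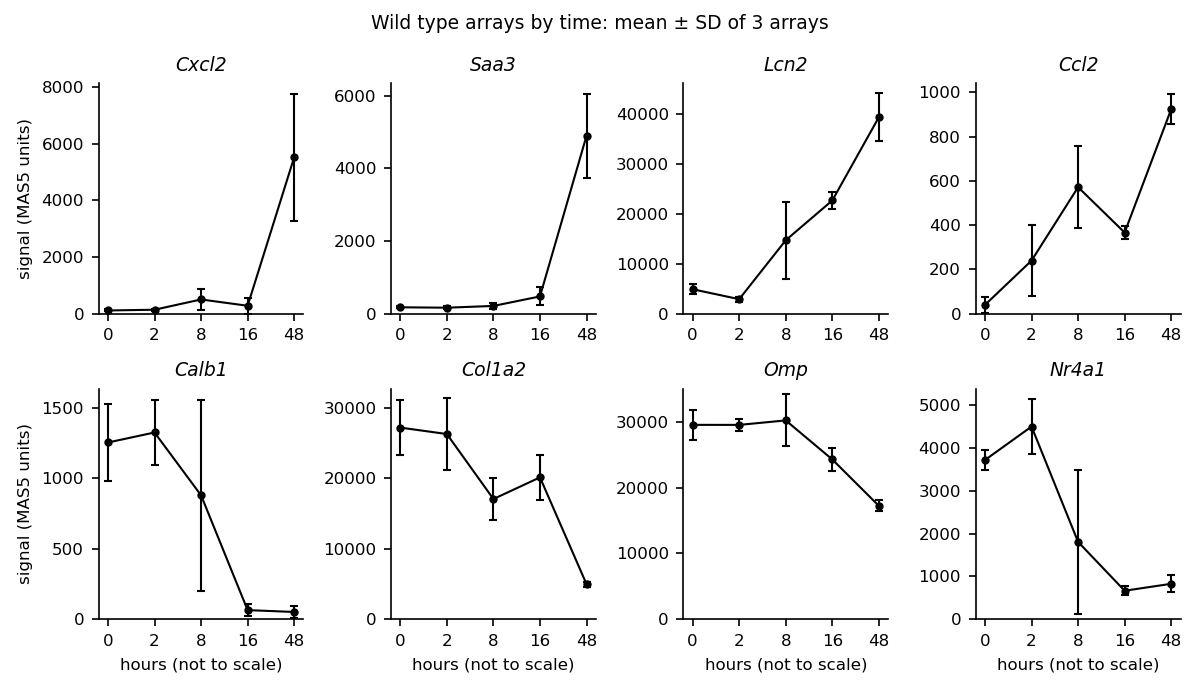
Points are the mean signals of 3 wild type arrays at each time on a linear axis and bars their SD, with time on an axis that is not to scale. Cxcl2, Saa3, Lcn2 and Ccl2 have their highest means at 48 h and means at 8 and 16 h above those at 0 h, and the Calb1 means lie under the floor at 16 and 48 h.

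The change at 48 h was set against the same change on the arrays labelled SR-A mutant, which have their own 0 h and 48 h arrays. The difference of the 2 changes, wild type minus SR-A mutant as labelled, was called for 224 genes, 4.25% of those tested, 135 of them above 0 (2.56%) and 89 below (1.69%). These directions rest on the labels, since Msr1 was higher on the arrays labelled mutant. The filter used wild type arrays only, so a gene bright on arrays labelled mutant alone was not tested. Cxcl2, Saa3 and Mmp3, and below Orm1, Il1b and Ccl2, were tested through wild type 48 h signals alone, a choice that favours differences above 0. Over probe sets it was called for 282 (4.16%), 167 above 0 (2.46%) and 115 below (1.7%), and for 128 without the array labelled SR-A mutant 0 h replicate 3. Cxcl2, Saa3 and Cxcl1 had the 3 largest such differences among the genes named here. Cxcl2 rose by 5.40 in wild type and differed by 0.19 between times on arrays labelled mutant, a difference of 5.22 ± 0.66 (adjusted p = 7.33e-05). Saa3 rose by 4.82 in wild type, against 0.39 on arrays labelled mutant (difference 4.43 ± 0.49, adjusted p = 2.48e-05), and Mmp3 by 3.79, against 0.03 (difference 3.76 ± 0.43, adjusted p = 2.8e-05). None of these values on arrays labelled mutant was called. Mmp3 means there were under the floor at 0 h (79.2) and 48 h (68.5), as were the 0 h means of Saa3 (68.0) and Cxcl2 (93.2). The floor therefore limits these changes on arrays labelled mutant. Cxcl1 rose by 2.91 in wild type and stood at -1.41 on arrays labelled mutant, also without a call there (difference 4.32 ± 0.71, adjusted p = 0.00131). For Plaur and the thyroid hormone activating enzyme Dio2 both changes were called, in opposite directions: Plaur rose by 0.98 in wild type and fell by 1.82 on arrays labelled mutant, and Dio2 rose by 1.31 in wild type and fell by 1.64 on arrays labelled mutant. Cebpb, too, rose by 0.54 in wild type and fell by 0.69 on arrays labelled mutant (difference 1.23 ± 0.14, adjusted p = 3.62e-05). Its 0 h means already stood apart, at 4474.1 in wild type and 7433.1 on arrays labelled mutant, and the genotypes were not tested at 0 h.

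Other inflammatory genes divided. A called difference was measured for 3 of 5 tested interleukin 1 genes, 3 of 10 acute phase genes, 7 of 22 epithelial injury genes and 1 of 21 interferon stimulated genes. Over all genes tested 4.25% had one, and 1 of 21 is near that share. These counts include Il1b, Il1rn, Saa3, Orm1 and Sprr2f, which were tested through wild type 48 h signals alone, a choice that favours such differences. Among genes of these lists and related genes the called difference was 3.66 for Bcl3, 3.63 for Orm1, 3.30 for Il1b, 2.99 for Ccl2, 2.30 for Il6 and 1.71 for Cp. For Lcn2, Serpina3n, Clu and Cd68 none was called. Lcn2 rose by 3.03 in wild type and by 3.96 on arrays labelled mutant (difference -0.93 ± 0.40, adjusted p = 0.193). Its 0 h and 48 h means were 4855.8 and 39289.6 in wild type, and lower, 1670.4 and 25914.5, on arrays labelled mutant. Serpina3n rose by 1.95 in wild type and 2.08 on arrays labelled mutant. Clu rose by 2.01 in wild type and 1.59 on arrays labelled mutant, and Cd68 by 0.81 in wild type and 0.64 on arrays labelled mutant. With 4.25% of all genes called, 1 of 12 tested genes of the odorant transduction list had a called difference. That was Gnb1 on its brightest probe set (1.44), and of the synaptic list it was Syn2 (-0.57), 1 of 13. Calb1 and Calb2 of the bulb list had -2.60 and -0.74. For Omp, Adcy3 and Syt1 no difference was called. Omp fell by 0.78 in wild type and 0.60 on arrays labelled mutant, Adcy3 fell by 1.06 in wild type and 0.80 on arrays labelled mutant, and Syt1 fell by 0.99 in wild type and 1.11 on arrays labelled mutant. A p that misses the threshold does not show that the genotypes were alike, and the standard errors of these differences were 0.15 for Omp and 0.19 for Adcy3. The collagen Col1a1 fell by 2.44 in wild type and 0.92 on arrays labelled mutant, a called difference (-1.52 ± 0.37, adjusted p = 0.0234), while Slc22a2, an organic cation transporter, fell by 2.01 in wild type and stood at 0.29 on arrays labelled mutant (difference -2.30 ± 0.51, adjusted p = 0.014). The comparison of arrays labelled mutant called 723 genes, 13.7% of those tested, and 296 genes were called in the same direction in both genotypes, which is 28.3% of the wild type calls and 40.9% of the calls on arrays labelled mutant. For 11 genes the calls were opposite.

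**Figure D5:**
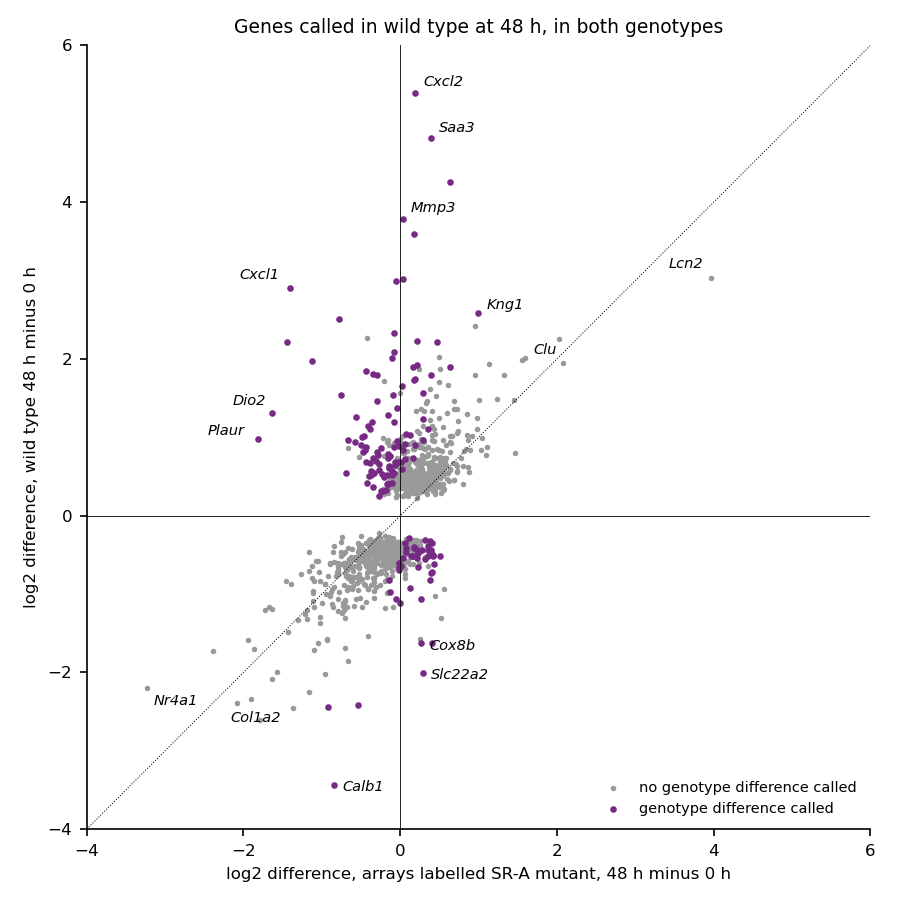
Each point is 1 of the 1045 genes called in wild type, with its 48 h minus 0 h log2 difference in wild type on the y axis and on arrays labelled SR-A mutant on the x axis, and the dotted line marks equal differences. Purple points are genes with a called difference between genotypes, and Cxcl2, Saa3 and Mmp3 lie near 0 on the x axis while Lcn2 lies at 3.96 there.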

How the data were processed

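RNA was measured in 30 samples on Affymetrix MG-U74Av2 arrays. The authors deposited a linear signal intensity for each probe set, made with MAS5 per the submitters' processing notes (its version was not given in the sources used). The number of arrays, 3 per group, limits the precision. Of 12488 probe sets 66 are controls. Signals were floored at 113.7, the 25th percentile, and log2 values tested where at least 3 of the 15 wild type arrays exceeded the median of 572, which kept 6783 probe sets and left out 5639. Gene names came from GEO's platform table: 10833 probe sets had 1 gene, 396 several and 1193 none, and 10817 matched RefSeq, which changed 0 symbols. The brightest tested probe set stands for a gene.

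limma 3.58.1 in R 4.3.3 fitted 5 group means to the 15 wild type arrays, with Benjamini-Hochberg adjustment. The genotype difference used 27 arrays, without the arrays labelled SR-A mutant 2 h, whose Gapdh 3′ and 5′ probe sets stood apart. An exact permutation test of 3 against 3 arrays cannot go below 0.1. On simulated data of 6783 probe sets, with 100 changed by each fold, the main test recovered 88% of 2-fold and 98% of 4-fold changes. It also called 12 unchanged probe sets. Changes under 2-fold, which most called genes had, were not simulated.

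Named genes were the 15 largest rises and falls without overlap, up to 4 called members of each of 52 lists, Omp, Gap43, Cd68 and Msr1, the 10 most significant genotype differences, and the 5 largest rises and falls against 16 h. Other list members, called or not, were named after their values were seen. The comparison and the lists were chosen with earlier results of these data known. Promoter sequences are RefSeq's. Alternatives covered the filter, floor, normalization, replicate number, variance moderation, arrays fitted and each array left out.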

Additional observations from a re-analysis of the deposited data

Results flagged for a closer look

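For 53 of the genes named here the 48 h change in wild type differed from that on arrays labelled SR-A mutant by the test of the difference itself (limma on 27 arrays, Benjamini-Hochberg adjustment). Over all genes tested it was called for 224, or 4.25%. The named genes were picked for large wild type changes and some for this difference, so the 53 are a selected count. Cxcl2, Saa3, Mmp3, Orm1, Sprr2f, Il1b, Ccl2, Il1rn and Birc3 were tested through wild type 48 h signals alone. The values are the change labelled wild type minus that labelled mutant on the log2 scale. The larger positive differences were 5.22 for Cxcl2, 4.43 for Saa3, 4.32 for Cxcl1, 3.76 for Mmp3, 3.66 for Bcl3, 3.63 for Orm1, 3.43 for Sprr2f, 3.30 for Il1b, 3.04 for Krt6a, 2.99 for Ccl2, 2.95 for Dio2, 2.81 for Plaur, 2.41 for Il1rn, 2.30 for Il6, 2.28 for Il1r2, 2.25 for Fos, 2.17 for S100a8, 2.10 for S100a9 and 2.09 for Gpx2. Smaller positive differences were 1.92 for Egr1, 1.82 for Ier3, 1.75 for Gbp2, 1.71 for Cp, 1.64 for Cd53, 1.59 for Kng1, 1.56 for Anxa3, 1.55 for Lgals3, 1.54 for Cebpd, 1.52 for Lox, 1.50 for Krt7, 1.48 for Socs3, 1.44 for Gnb1, 1.40 for Birc3, 1.28 for Anxa1, 1.23 for Cebpb, 0.99 for Igfbp4, 0.94 for Gadd45a, 0.91 for Ctsh, 0.89 for Anxa2, 0.86 for Xbp1 and 0.66 for Pgk1. Negative differences were -2.60 for Calb1, -2.30 for Slc22a2, -1.90 for Cox8b, -1.88 for Fmod, -1.52 for Col1a1, -1.13 for Cyp2e1, -0.76 for Igf1, -0.74 for Calb2, -0.71 for Kit, -0.63 for Fmo1, -0.63 for Gas6 and -0.57 for Syn2.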

How the results depend on the processing

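The comparison of 48 h with 0 h called 1334 probe sets, and 845 to 1252 when each of the 6 arrays was left out, the lowest without the 48 h replicate 1 array. The 661 falls were 438 in a fit of only the 6 arrays and 381 to 610 with an array left out, with 381 without the 48 h replicate 1 and 422 without the 0 h replicate 3 array. The other settings gave 952 to 1407 calls. The genotype difference called 282 probe sets, 82 in a fit of only the 12 arrays and 128 to 404 with an array left out, with 128 without the array labelled SR-A mutant 0 h replicate 3, 175 without the wild type 48 h replicate 1, 168 without the 48 h replicate 3, 168 without the 0 h replicate 2 and 176 without the 0 h replicate 3 array. Its 167 positive differences were 65 in the 12 array fit and 89 to 205 with an array left out, and its 115 negative ones were 68 with all 30 arrays, 17 in the 12 array fit and 39 to 199 with an array left out. The comparison of 48 h with 16 h called 280 probe sets, and 71 to 334 with an array left out, with 71 without the 48 h replicate 1, 123, 184 and 91 without the 16 h replicates 1, 2 and 3. Its 135 rises were 29 to 159 and its 145 falls 42 to 175. The cause of these shifts was not tested. Of the 169 called genes named here, 117 kept their call under all 15 alternatives, 52 lost it under at least 1, and none of them changed direction. Genes near 0 that were not called changed sign when an array was left out, with -0.05 to 0.04 for Csf1r, -0.02 to 0.13 for Cx3cl1, -0.03 to 0.21 for Cyp2f2, -0.55 to 0.08 for Egr1, -0.01 to 0.18 for Junb, -0.01 to 0.30 for Neurod1, -0.08 to 0.44 for Nfkbia, -1.79 to 0.29 for Ngp, -0.25 to 0.10 for Relb and -0.20 to 0.10 for Rsad2, and Cyp2f2 stood at -0.05 after quantile normalization. Whether the replicate numbers pair the arrays is not settled, and the main test did not pair them. Deviations of same-numbered 48 h and 0 h arrays correlated weakly, at 0.077, 0.128 and 0.093. Arrays of unlike numbers correlated at -0.136 to 0.054, so each 48 h array correlated best with its own number. With a replicate block the 3 comparisons called 1392, 252 and 257 probe sets. Signals near the floor limit the dimmest genes, whose changes are bounds.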

Other observations

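In lists of mitochondrial, ribosomal, proteasome and glycolysis genes 4.5% to 17.6% of genes were called, against 19.8% of all genes tested. Of 58 tested subunits of oxidative phosphorylation 7 fell and 1 rose, with a median of -0.09, and the falls numbered 4 without the 48 h replicate 1 or 0 h replicate 3 array and 3 without the 0 h replicate 2 array. The most changed was Cox8b, a subunit of cytochrome oxidase best known from heart and muscle, which fell by 1.63 in wild type, and by 1.35 on its other probe set. Of 22 tested ribosomal protein genes 1 rose and none fell, and of 34 tested proteasome subunits 4 rose and 1 fell, with no rise without the 48 h replicate 1, 48 h replicate 2 or 0 h replicate 1 array. Of 17 tested glycolysis genes the kinase Pgk1 rose by 0.72, and Pgam1 and Eno2, an enolase of neurons, fell by 0.55 and 0.42. The call of Eno2 was lost without the 48 h replicate 1 array (adjusted p up to 0.0526).

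In the insulin-like growth factor list 3 of 9 tested genes fell and 1 rose. The growth factors Igf1 and Igf2 fell by 0.54 and 0.52 and the binding protein Igfbp2 by 1.15, while the binding protein Igfbp4 rose by 0.95 on its brightest probe set and stood at 0.40 without a call on another. The call of Igf1 was lost without the 48 h replicate 2 array (limma, adjusted p = 0.066), without the 0 h replicate 1 array (adjusted p = 0.0688) and in the fit of only the 6 arrays. Of 22 tested genes of stress and protein folding in the endoplasmic reticulum 5 rose and 1 fell, with a median of -0.08. That is 27.3% called, against 19.8% of all genes. The rises included the stress factor Xbp1, by 0.92, and the secreted protein Manf, by 0.54. Of 16 tested clock genes the repressor Cry2 fell by 0.51 and no other was called. Of 15 tested genes of cilia 4 fell, or 26.7%, among them Spa17 by 0.83 and the kinase Mak by 0.64. The list had 2 falls without the 48 h replicate 1, 0 h replicate 1 or 0 h replicate 2 array.

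Of 11 tested complement genes Clu and the inhibitor Serping1 rose, Serping1 by 0.65, and the regulator Cd55 fell by 0.70. That is 27.3% called, the same share as in the endothelial list, against 19.8% of all genes. Of 11 tested endothelial genes Icam1 and the tight junction protein Cldn5 rose, Cldn5 by 0.92, and Angpt2, a vessel growth factor, fell by 0.49, and under the filter on the mean signal 1 of 7 rose. The call of Cldn5 was lost without the 48 h replicate 1 or 2 or 0 h replicate 1 array (adjusted p up to 0.0543). The call of Angpt2 held only when the 48 h replicate 2 or 0 h replicate 1 array was the one left out (adjusted p up to 0.156). The lipoprotein Apod rose by 0.78 and was the 1 called gene of 10 tested in the glial list. Of 17 tested cholesterol and lipid synthesis genes the transcription factor Srebf1 rose by 0.54 and the elongase Elovl6 by 0.56, and Nsdhl fell by 0.31, against 0.00 on another probe set. The call of Srebf1 was lost without the 48 h replicate 1 or 2 or 0 h replicate 3 array (adjusted p up to 0.0614). The call of Elovl6 held only when the 0 h replicate 3 array was the one left out (adjusted p up to 0.144). The call of Nsdhl held only when the 48 h replicate 2 or 0 h replicate 1 array was the one left out (adjusted p up to 0.139). Of 15 tested cell cycle inhibitors and p53 targets Gadd45a rose by 0.57 and Cdkn1a fell by 0.48, against -0.30 without a call on another probe set. The call of Cdkn1a held only when the 48 h replicate 3 array was the one left out (adjusted p up to 0.163). Of 13 tested glucocorticoid responsive genes Zbtb16, Ddit4 and Cdkn1a fell, Zbtb16 by 1.30, or 23.1% called, against 19.8% of all genes. The list had no fall without the 48 h replicate 1, 48 h replicate 2, 0 h replicate 1 or 0 h replicate 3 array and 1 fall without the 0 h replicate 2 array. The call of Zbtb16 was lost without each of the 6 arrays in turn (adjusted p up to 0.136). The call of Ddit4 held only when the 48 h replicate 3 or 0 h replicate 2 array was the one left out (adjusted p up to 0.129). Of 4 tested mast cell genes Kit fell. None was called (limma, adjusted p) among 4 tested metallothioneins, 3 red blood cell genes, 3 skeletal muscle genes and the 1 tested T and natural killer cell gene, and 19.8% of all genes were.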
